A study of Mus musculus with 10 samples.

Results

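A set of 10 genes that mark liver macrophages was followed in the livers of Ndrg3 LKO mice. They were taken by gene symbol from the 24052 genes listed in every count table, and all 10 were found. The first 5, *Clec4f*, *Cd5l*, *Vsig4*, *Timd4* and *Marco*, are genes of the resident macrophages of the liver, the Kupffer cells. The other 5, *Trem2*, *Gpnmb*, *Cd9*, *Itgax* and *Lyz2*, are genes described in lipid-associated macrophages or, for *Lyz2*, in myeloid cells at large.

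RNA of 10 whole livers was sequenced, 5 labelled wild type and 5 labelled KO, with 1 library per liver. The paper's figure of these RNA data gives 5 wild-type and 4 Ndrg3 LKO livers. Which liver it left out is not stated in the sources used here, and all 10 were used in the main fit. In Ndrg3 LKO mice, exon 4 of *Ndrg3* is flanked by loxP sites on both alleles and removed by a Cre recombinase under the albumin promoter, which is active in hepatocytes and not in macrophages. All mice were males, labelled C57BL/6 (the methods name backcrossing to C57BL/6N), and were fed ad libitum, aged 8 to 10 weeks by the methods of the study and 10 to 12 weeks by a legend to the same livers. The controls are called wild-type littermates, although the last cross described gives each pup at least 1 floxed allele, so whether the controls carried such an allele is not clear from the sources used here.

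Kupffer cells line the liver sinusoids, clear particles and microbes from portal blood, and keep their identity through signals from endothelial and stellate cells. In fatty or injured liver, macrophages can take on a lipid-associated state in which TREM2, a receptor for lipids and apolipoproteins, and the lysosomal glycoprotein GPNMB are made. Macrophages that enter the liver from blood monocytes lack TIM4, the product of *Timd4*, for some time, whereas long-lived resident Kupffer cells carry it.

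*Ndrg3* itself was measured at 15.9 to 21.9 CPM (normalized read counts) in wild-type livers and at 7.07 to 9.16 CPM in Ndrg3 LKO livers. Here and below, CPM are counts scaled by library size and the trimmed mean of M values (TMM), and each log2 fold change is Ndrg3 LKO over wild type. The fall was 1.20 on the log2 scale (log2 fold change -1.20 ± 0.13, SE, adjusted p = 3.87e-05, edgeR quasi-likelihood test), with no overlap between the groups. The totals ran from 20872262 to 24747870 counts in wild-type livers and from 23474693 to 30450057 in Ndrg3 LKO livers. Ndrg3 LKO replicate 5 stood apart on the first principal component, at 14.1 against 51.1 to 56.6 for the other Ndrg3 LKO livers and -49.9 to -43.0 for the wild type. Its summed level of 8 hepatocyte genes, 151869 CPM, lay inside the wild-type range of 131172 to 173380 CPM, while the other 4 Ndrg3 LKO livers had 37611 to 45399 CPM. Most of that sum in replicate 5 was *Alb* (107850 CPM). Single genes of the list did not all lie inside the wild-type range. *Apoa1*, for 1, was below it (13994 CPM against at least 16761), and some others were above. Values without this liver are therefore given beside the main ones for all members and for some of the other genes and lists.

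To show the regions from which these genes are transcribed, the DNA just before the start of 4 members was read. *Clec4f* is shown as the reference marker of Kupffer cells, and *Marco*, *Trem2* and *Gpnmb* as 3 of the 4 members whose levels moved furthest. Each run reads 5' to 3' on the strand of its gene, in NCBIM37 (mm9), and ends just before the first annotated base of the gene. Capitals mark GAGGAA, the core read by the macrophage factor PU.1, and TGANTCA, the AP-1 core, on either strand.
Clec4f: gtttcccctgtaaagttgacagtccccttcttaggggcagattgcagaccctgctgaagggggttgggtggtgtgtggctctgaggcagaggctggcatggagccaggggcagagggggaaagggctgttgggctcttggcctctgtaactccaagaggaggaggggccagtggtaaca
Marco: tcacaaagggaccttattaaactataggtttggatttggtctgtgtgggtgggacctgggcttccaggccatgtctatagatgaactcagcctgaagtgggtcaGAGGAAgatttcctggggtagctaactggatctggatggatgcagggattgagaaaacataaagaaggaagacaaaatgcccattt
Trem2: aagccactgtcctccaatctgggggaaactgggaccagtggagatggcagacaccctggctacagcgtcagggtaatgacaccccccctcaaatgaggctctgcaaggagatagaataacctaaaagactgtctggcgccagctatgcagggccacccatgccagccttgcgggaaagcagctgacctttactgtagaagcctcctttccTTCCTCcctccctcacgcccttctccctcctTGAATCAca
Gpnmb: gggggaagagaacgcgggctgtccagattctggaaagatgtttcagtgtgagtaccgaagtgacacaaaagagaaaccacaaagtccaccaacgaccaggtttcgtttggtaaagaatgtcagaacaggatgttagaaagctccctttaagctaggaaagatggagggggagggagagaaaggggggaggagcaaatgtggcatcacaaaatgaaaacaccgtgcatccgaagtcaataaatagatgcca
The runs lie at chr6:83606182-83606360 (minus strand), chr1:122401662-122401851 (minus strand), chr17:48485476-48485725 (plus strand) and chr6:48986267-48986516 (plus strand). In the 250 bases before the RefSeq start, GAGGAA was found in 4 of the 10 members, *Cd5l*, *Vsig4*, *Marco* and *Trem2*, against 23.4% of 32536 mouse promoters. TGANTCA was found in *Trem2* and *Itgax*, 2 of 10, against 6.73% of promoters. CACGTG, the core read by the lysosomal factors TFEB, TFE3 and MITF, was in 0 of 10 against 6.04%. *Marco*, with the second largest change, and *Trem2* hold GAGGAA, whereas *Gpnmb*, with the largest, holds none of these letters in this window.

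All 10 members were higher in Ndrg3 LKO livers, as whole-liver RNA shows them, in which more cells of a type and more RNA per cell cannot be told apart. Of them, 7 passed the filter of at least 1 CPM in at least 5 livers, and all 7 were called higher (adjusted p under 0.05), where 25.6% of the 11208 genes tested were and 23.0% were called lower. These shares depend on the scaling, since with library size alone 5821 genes were called higher and 1010 lower. *Trem2*, *Gpnmb* and *Itgax* reached 1 CPM in 4 livers each, so their values come from a fit with a lower count filter (edgeR filterByExpr), in which 24.8% of 12338 genes were called higher. There the 3 passed the threshold. All 3 entered that fit through the Ndrg3 LKO livers in which they are high, so their calls are not read against this share. The median log2 fold change was 1.30 for the 5 resident genes (1.09 to 4.30) and 2.73 for the other 5 (1.17 to 4.52), against 0.03 for all genes tested in either fit.

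**Figure D1:**
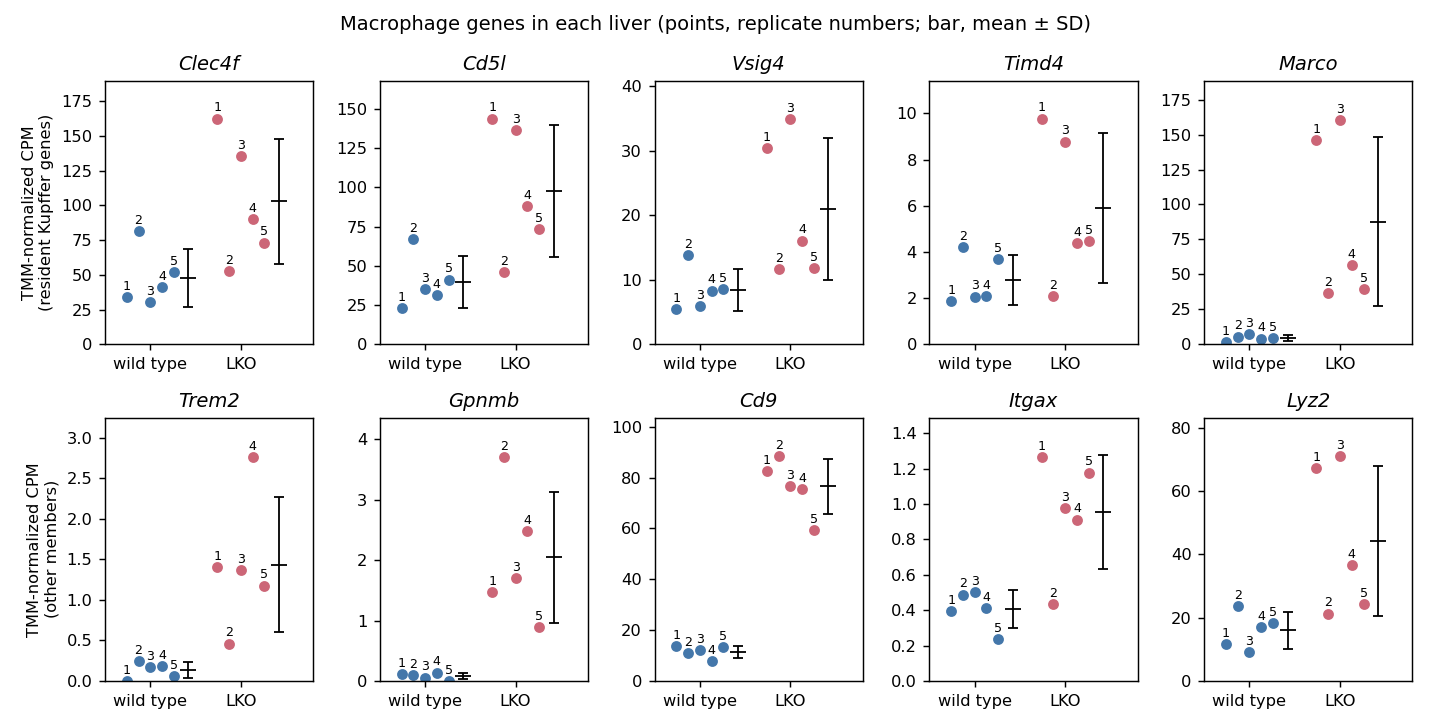
Each panel plots 1 gene, with TMM-normalized CPM on a linear axis from 0, 1 numbered point per liver (5 wild-type in blue, 5 Ndrg3 LKO in red) and the mean ± SD of each group as a black bar. The groups are fully apart for *Marco*, *Trem2*, *Gpnmb* and *Cd9*, and Ndrg3 LKO replicate 2 falls inside the wild-type range for the other 6 genes.

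*Clec4f* encodes a lectin made in mice almost only by Kupffer cells, and lies at chr6:83594536-83606181 on the minus strand. It was measured at 34.1, 81.5, 30.1, 41.1 and 52.0 CPM in wild-type replicates 1 to 5, and at 162.6, 52.9, 135.4, 90.3 and 73.2 CPM in Ndrg3 LKO replicates 1 to 5. The groups overlapped, since wild-type replicate 2 lay above Ndrg3 LKO replicates 2 and 5. The mean rose from 47.8 ± 20.6 to 102.9 ± 45.2 CPM (SD, n = 5 each), a log2 fold change of 1.11 ± 0.33 (SE, adjusted p = 0.0167, edgeR quasi-likelihood test).

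*Cd5l*, at chr3:87161803-87174996 on the plus strand, encodes AIM, a secreted protein that protects macrophages from cell death. Wild-type livers had 23.1, 66.9, 35.1, 31.5 and 41.2 CPM and Ndrg3 LKO livers 143.8, 45.8, 136.7, 88.2 and 73.4 CPM, in order of replicate. Ndrg3 LKO replicate 2 alone lay below the highest wild-type liver. *Cd5l* rose by a log2 fold change of 1.30 ± 0.34 (SE, adjusted p = 0.00754, edgeR).

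*Vsig4*, at chrX:93442542-93488777 on the minus strand, encodes CRIg, the complement receptor with which Kupffer cells catch opsonized microbes. It stood at 5.44, 13.8, 5.90, 8.31 and 8.57 CPM in wild-type livers and at 30.5, 11.6, 35.0, 16.1 and 11.8 CPM in Ndrg3 LKO livers. Replicates 2 and 5 of the Ndrg3 LKO group were below wild-type replicate 2. The log2 fold change was 1.32 ± 0.36 (SE, adjusted p = 0.0101, edgeR).

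*Timd4*, at chr11:46624302-46657834 on the plus strand, encodes TIM4, a receptor for phosphatidylserine on dying cells. Its levels were 1.85, 4.20, 2.06, 2.07 and 3.69 CPM in wild-type livers and 9.77, 2.08, 8.78, 4.39 and 4.48 CPM in Ndrg3 LKO livers. Ndrg3 LKO replicates 4 and 5 were just above the highest wild-type liver, and replicate 2 was near the lower end of the wild type. The log2 fold change of 1.09 ± 0.40 (SE, adjusted p = 0.0412, edgeR) was close to the threshold, and it no longer passed when any 1 of wild-type replicates 1, 3 and 4 or Ndrg3 LKO replicates 1 and 3 was left out (adjusted p = 0.0931, 0.0890, 0.0858, 0.115 and 0.0987, in that order) or with limma on log2(CPM + 1) (0.78, adjusted p = 0.0618).

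*Marco* stood apart from the other resident genes. It encodes a scavenger receptor for bacteria and particles and lies at chr1:122371115-122401661 on the minus strand. Wild-type livers had 1.57, 5.52, 6.96, 4.04 and 4.23 CPM, and Ndrg3 LKO livers had 145.9, 36.5, 160.2, 56.8 and 39.5 CPM. The lowest Ndrg3 LKO liver lay above the highest wild-type liver by a wide margin. *Marco* rose by 4.30 ± 0.53 on the log2 scale (SE, adjusted p = 9.07e-05, edgeR), or 19.6-fold, whereas the other 4 resident genes rose 2.13- to 2.49-fold.

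*Trem2*, at chr17:48485726-48493472 on the plus strand, was nearly silent in wild-type livers, with 0, 5, 3, 4 and 1 counts. The 0 counts of replicate 1 allow a level of up to 0.168 CPM (3 counts). In Ndrg3 LKO livers 49, 19, 53, 97 and 25 counts were found. In CPM this is 0 to 0.244 against 0.460 to 2.76, with no overlap. The log2 fold change was 3.33 ± 0.60 (SE, adjusted p = 9.89e-04, edgeR, filterByExpr genes). Taken over each group, 13 counts stood against 243, a rate ratio of 10.4 (95% exact interval 5.94 to 19.7, for counting error alone).

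*Gpnmb*, at chr6:48986517-49020928 on the plus strand, gave 2, 2, 1, 3 and 0 counts in wild-type livers and 51, 153, 66, 87 and 19 counts in Ndrg3 LKO livers. The 0 counts of wild-type replicate 5 allow up to 0.179 CPM. The corresponding CPM were 0 to 0.138 and 0.896 to 3.71. The groups were again apart, and the order of the Ndrg3 LKO livers differed from that of the resident genes, with replicate 2 highest. The log2 fold change was 4.52 ± 0.55 (SE, adjusted p = 8.18e-05, edgeR, filterByExpr genes), and the rate ratio over the summed 376 and 8 counts was 26.0 (95% exact interval 13.1 to 60.7).

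*Cd9* encodes a tetraspanin of the cell surface that many liver cell types make besides macrophages, and lies at chr6:125410284-125444809 on the minus strand. Wild-type livers had 13.7, 10.9, 11.97, 7.81 and 13.3 CPM and Ndrg3 LKO livers had 82.6, 88.5, 76.8, 75.5 and 59.3 CPM. The groups were well apart and showed little spread within them. *Cd9* rose by 2.73 ± 0.17 on the log2 scale (SE, adjusted p = 1.77e-06, edgeR), with the smallest standard error of the 10 members. An annotated gene, *Gm16749*, overlaps it on the opposite strand, and the strand setting of the counting is not given in the sources used here.

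*Itgax*, at chr7:135273061-135294171 on the plus strand, encodes CD11c, the integrin of dendritic cells and some activated macrophages. The counts were low in both groups, 7, 10, 9, 9 and 4 in wild-type livers and 44, 18, 38, 32 and 25 in Ndrg3 LKO livers. In CPM, 4 of 5 Ndrg3 LKO livers lay above the wild-type maximum of 0.501 and replicate 2, at 0.436, lay inside. *Itgax* rose by 1.17 ± 0.34 on the log2 scale (SE, adjusted p = 0.0136, edgeR, filterByExpr genes). With quantile normalization and limma it did not pass (0.26, adjusted p = 0.0855), and with limma on log2(CPM + 1) the value was 0.45. Of its 100-base windows, 3.70% also occur in *Itgad*.

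*Lyz2*, at chr10:116714390-116719377 on the minus strand, encodes the lysozyme of monocytes, macrophages and neutrophils. Levels were 11.6, 23.7, 9.19, 17.04 and 18.2 CPM in wild-type livers and 67.3, 21.3, 71.2, 36.6 and 24.2 CPM in Ndrg3 LKO livers. Replicate 5 of the Ndrg3 LKO group lay just above the highest wild-type liver and replicate 2 below it. The rise came to a log2 fold change of 1.47 ± 0.37 (SE, adjusted p = 0.00656, edgeR). Its neighbour *Lyz1*, with which it shares 1.98% of its 100-base windows, had 0 to 6 counts per liver.

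Complete separation of the groups was seen for 4 of the 10 members, *Marco*, *Trem2*, *Gpnmb* and *Cd9*. In the wider fit, 16.0% of all genes had each Ndrg3 LKO liver above each wild-type liver. *Trem2* and *Gpnmb* entered that fit through the Ndrg3 LKO livers, so their separation is not read against this share. Counted by liver, Ndrg3 LKO replicates 1, 3 and 4 lay above the wild-type maximum for all 10 members, replicate 5 for 8 and replicate 2 for 4. Replicates 1 and 3 were the 2 highest Ndrg3 LKO livers for 6 members, namely the 5 resident genes and *Lyz2*. Replicate 2 was the lowest for 8 members and the highest for the remaining *Gpnmb* and *Cd9*. Among wild-type livers, replicate 2 was the highest for 6 members. The sum of 12 general macrophage genes ran in the same direction, at 249.0 CPM in wild-type replicate 2 against 102.4 to 165.5 in the other wild-type livers, and at 212.0 CPM in Ndrg3 LKO replicate 2 against 317.5 to 590.7 in the others.

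Without Ndrg3 LKO replicate 5, the log2 fold change was 1.21 for *Clec4f*, 1.39 for *Cd5l*, 1.46 for *Vsig4*, 1.17 for *Timd4* and 4.48 for *Marco*. It was 3.38 for *Trem2*, 4.70 for *Gpnmb*, 2.81 for *Cd9*, 1.08 for *Itgax* and 1.62 for *Lyz2*. All 10 were again called higher, with 28.3% of 11208 genes called higher under the first filter and 27.2% of 12338 under the wider one. *Trem2*, *Gpnmb* and *Itgax* entered the wider fit through the Ndrg3 LKO livers, so their calls are not read against its share. The differences between the members were thus as large without the liver that stood apart.

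**Figure D2:**
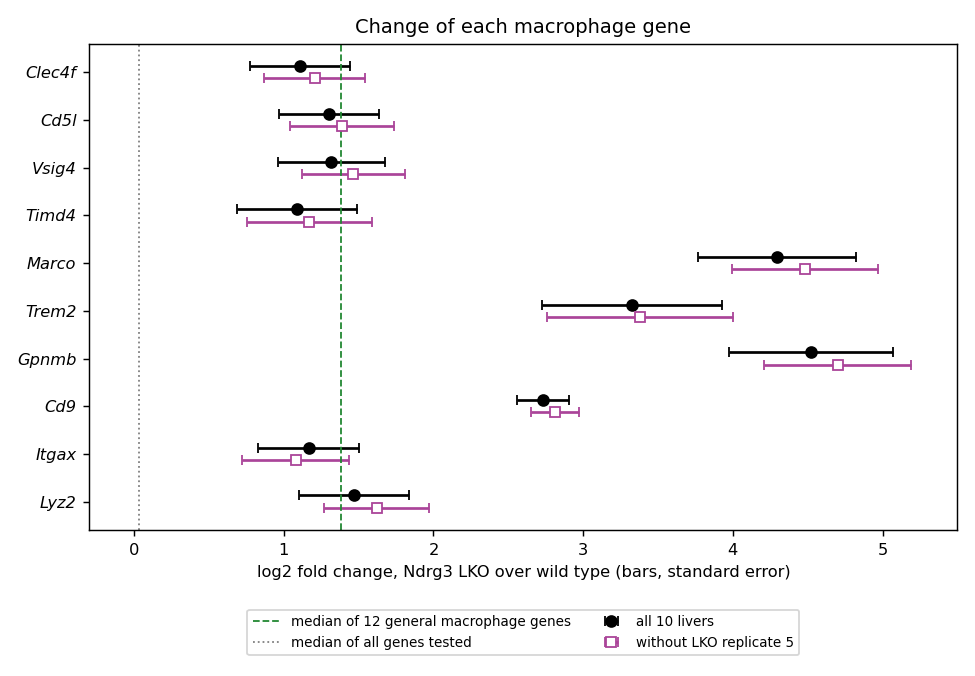
The horizontal axis gives the log2 fold change (Ndrg3 LKO over wild type) of each member with its standard error, for all 10 livers (filled circles) and without Ndrg3 LKO replicate 5 (open squares). A group of 6 members lies at 1.09 to 1.47, near the dashed median of 12 general macrophage genes at 1.38, while *Cd9*, *Trem2*, *Marco* and *Gpnmb* lie at 2.73 to 4.52. The dotted line marks the median of all genes tested.

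The members were also expressed per 100 counts of *Clec4f* in the same liver, a measure that does not depend on how the libraries were scaled and that was given no test. On this scale 4 of the other 9 members were higher in every Ndrg3 LKO liver than in any wild-type liver, and 5 overlapped. *Marco* had 4.61, 6.77, 23.1, 9.84 and 8.12 counts per 100 *Clec4f* counts in wild-type livers and 89.7, 69.1, 118.3, 62.9 and 54.0 in Ndrg3 LKO livers. *Cd9* went from 13.4 to 40.1 in the wild type to 50.8 to 167.4 in Ndrg3 LKO livers. *Trem2* had at most 0.555 and at least 0.866, and *Gpnmb* at most 0.336 and at least 0.902, for the wild type and Ndrg3 LKO in turn. Both are low counts in wild-type livers.

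The remaining 5 members overlapped between the groups on this scale. *Cd5l* stood at 67.6 to 116.6 counts per 100 *Clec4f* counts in wild-type livers (median 79.2) and at 86.7 to 101.0 in Ndrg3 LKO livers (median 97.7). *Vsig4* stood at 16.0 to 20.2 and 16.2 to 25.8, *Timd4* at 5.03 to 7.09 and 3.94 to 6.48, and *Lyz2* at 29.1 to 41.5 and 33.0 to 52.6, in the same order. *Itgax* ranged from 0.458 to 1.66 in the wild type and from 0.722 to 1.61 in Ndrg3 LKO livers. By this measure the members did not divide into the 5 resident and the 5 other genes, since *Marco* stood with *Trem2*, *Gpnmb* and *Cd9*, and *Itgax* and *Lyz2* with the resident genes. The mean of log2(CPM + 1) over the other 5 less that over the resident 5, each centred on the wild type, was -0.49 to 0.53 in wild-type and -0.83 to 0.44 in Ndrg3 LKO livers. The added 1 lowers the log2 fold change to 1.03 for *Trem2* and 1.42 for *Gpnmb* (limma), and whether the overlap holds without it was not tested. The log2 ratio of *Trem2* to *Clec4f* counts, with 0.5 added to each, was -8.52 ± 1.21 in wild-type and -6.24 ± 0.77 in Ndrg3 LKO livers (SD, n = 5 each), with no overlap.

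**Figure D3:**
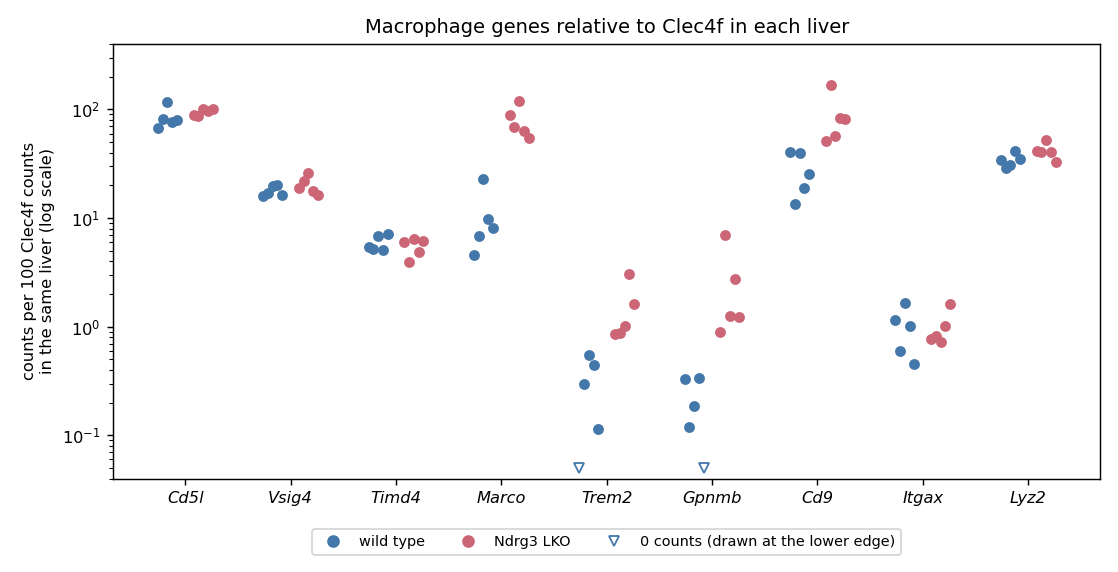
The vertical axis gives, on a log scale, the counts of each gene per 100 *Clec4f* counts in the same liver, with 1 point per liver (wild type in blue, Ndrg3 LKO in red) and open triangles for livers with 0 counts. The red and blue points mix for *Cd5l*, *Vsig4*, *Timd4*, *Itgax* and *Lyz2* and are apart for *Marco*, *Trem2*, *Gpnmb* and *Cd9*.

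Levels were compared between genes as CPM per kilobase of annotated exon. This length was 4.946 kb for *Trem2*, which has 4 annotated transcripts, and 2.044 kb for *Cd9*, which has 3. Which transcripts the livers made was not tested, and a shorter one would give a higher value. The places of *Trem2* and *Cd9* among the genes therefore hold for this length only. In wild-type livers *Cd5l* (19.4 ± 8.16, SD, n = 5) and *Clec4f* (19.3 ± 8.33) were the most abundant, followed by *Lyz2* (12.1 ± 4.36), *Vsig4* (5.67 ± 2.25), *Cd9* (5.65 ± 1.16), *Marco* (2.25 ± 1.01) and *Timd4* (1.28 ± 0.50). *Itgax* (0.10 ± 0.03), *Trem2* (0.03 ± 0.02) and *Gpnmb* (0.02 ± 0.01) were far below. In Ndrg3 LKO livers *Cd5l* (47.9 ± 20.6), *Marco* (44.2 ± 30.4), *Clec4f* (41.6 ± 18.3), *Cd9* (37.4 ± 5.33) and *Lyz2* (33.6 ± 18.0) had overlapping ranges over livers. These ranges do not give the order of the genes within a liver. Within each Ndrg3 LKO liver, *Cd5l* lay above *Clec4f*, and *Clec4f* above *Lyz2*. *Vsig4* (14.1 ± 7.39) and *Timd4* (2.72 ± 1.49) followed. With the lengths used, *Gpnmb* (0.44 ± 0.24), *Trem2* (0.29 ± 0.17) and *Itgax* (0.24 ± 0.08) overlapped at the bottom. *Marco*, below *Lyz2* and *Clec4f* in every wild-type liver, lay above *Lyz2* in all 5 Ndrg3 LKO livers and above *Clec4f* in 2 of them.

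Other macrophage genes were then examined as lists. All 12 general macrophage genes were called higher, where 25.6% of all genes tested were, with a median log2 fold change of 1.38. The largest were *Fcgr3* (1.70) and *Fcgr1* (1.64), receptors for antibody, the lysosomal *Cd68* (1.63) and the protease gene *Ctss* (1.497). All 8 general leukocyte genes were also called higher, with a median of 1.33, led by the integrin gene *Itgb2* (1.64). *Clec4f*, *Cd5l*, *Vsig4*, *Timd4*, *Itgax* and *Lyz2*, at 1.09 to 1.47, were close to these medians.

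Of 14 further Kupffer cell genes tested, 8 were called higher and 3 lower, where 25.6% and 23.0% of all genes tested were. Their median was 1.06. *Id3*, a regulator that Kupffer cells need for their identity, rose by 2.02, *Cd38*, an NAD-consuming enzyme, by 1.47 and the metal transporter *Slc11a1* by 1.28. *C6*, a complement component, fell by 3.41 on the log2 scale, from 367.6 ± 60.9 to 34.5 ± 18.5 CPM. *Nr1h3*, which encodes the sterol-sensing receptor LXR alpha, was also called lower (-0.60). Without Ndrg3 LKO replicate 5, 9 of the 14 were called higher and 3 lower.

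Of 14 further genes of lipid-associated macrophages, 8 were called higher and 2 lower, beside the same 25.6% and 23.0% of all genes. Their median was 0.46. *Cd63*, a tetraspanin of lysosomes, rose from 3.22 ± 0.56 to 32.0 ± 14.1 CPM (log2 fold change 3.31), the galectin gene *Lgals3* by 1.75 and *Lpl*, lipoprotein lipase, by 1.67. *Mmp12*, a macrophage elastase measured only in the wider fit, rose by 5.43 from at most 0.147 CPM to 0.630 to 4.53 CPM. *Atp6v0d2*, a proton pump subunit, fell by 1.93, and *Acp5*, a phosphatase, was the other gene called lower (-0.68). Many of these genes, such as *Apoe* at 20735 to 26741 CPM in wild-type livers, are made by hepatocytes too. Without Ndrg3 LKO replicate 5, 7 of the 14 were called higher and 4 lower, and *Lpl* rose by 1.21 (adjusted p = 0.0110, edgeR).

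Genes of recruited monocytes were sparse. Of 12 listed, 1 passed the first filter, *Plac8*, and it was called higher. Another 4 entered the wider fit, some of them, such as *Ms4a7*, only through the Ndrg3 LKO livers, so a count over them is not read as a result. The log2 fold changes in that fit are those of *Ms4a7* (3.05), which marks monocyte-derived liver macrophages, *Ccr2* (1.86), the receptor that brings monocytes out of bone marrow, and *Plac8* (1.25). *Ccr2* stood at 0.395 ± 0.209 CPM in wild-type and 1.48 ± 0.73 CPM in Ndrg3 LKO livers. The summed level of the 12 genes ran from 3.95 to 8.94 CPM in wild-type and from 7.97 to 31.7 CPM in Ndrg3 LKO livers.

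Among ligands of the Kupffer cell niche, 5 of 6 tested were called higher, where 25.6% of all genes were, and 4 in the wider fit (24.8%). They included the Notch ligands *Dll1* (1.35) and *Dll4* (1.02), the growth factor gene *Tgfb1* (1.31) and *Gdf2*, which encodes BMP9 (0.66). With Ndrg3 LKO replicate 5 left out, *Dll4* rose by 0.64 (adjusted p = 0.0413, edgeR) and did not pass in the wider fit (0.61, adjusted p = 0.0565). On the receiving side, 2 of 7 were called higher and 2 lower, near the shares of all genes (25.6% and 23.0%). The receptor genes *Csf1r* (1.49) and *Acvrl1* (0.996) rose, and the nuclear effectors *Smad4* and *Rbpj* fell (-0.49 and -0.45). Of 6 tested genes around TREM2, *Tyrobp*, its signalling adaptor, rose by 1.47, the kinase gene *Syk* by 1.40 and *Adam17*, a sheddase, by 0.57, and its ligand gene *Clu* fell by 0.84 on the log2 scale. Of 7 genes of dead cell uptake, *Mfge8* (1.60), *Axl* (1.22) and *Stab1* (0.66) rose and *Pros1* (-0.57) fell. Without Ndrg3 LKO replicate 5, *Stab1* no longer passed (0.48, adjusted p = 0.0823, edgeR), and *Apoe*, a TREM2 ligand, was called lower as well (-0.64).

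**Figure D4:**
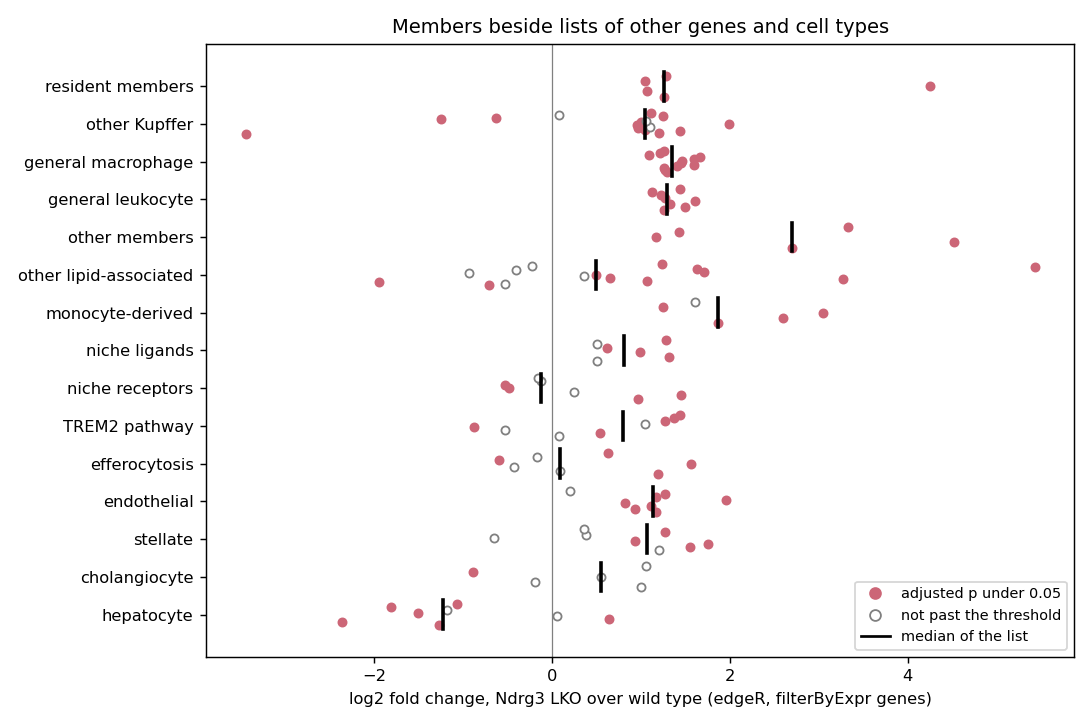
Each point is 1 gene of a list, placed by its log2 fold change (Ndrg3 LKO over wild type) in the wider fit, filled where the adjusted p was under 0.05, and the black bar is the median of the list. General macrophage and leukocyte genes lie tightly between 1 and 2, whereas the other lipid-associated and Kupffer genes lie on both sides of 0 and hepatocyte genes mostly below it.

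Genes of other liver cells moved as well. Of 8 endothelial genes, 7 were called higher, where 25.6% of all genes were, with a median of 1.17. *Lyve1* (1.99) and *Pecam1* (1.31) were in front. The sums were 64.6 to 83.5 CPM in wild-type and 129.5 to 178.9 CPM in Ndrg3 LKO livers. Of 8 stellate cell genes, 4 were called higher, beside the same share, led by *Col3a1* (1.79) and *Col1a1* (1.59). The median was 1.10, with sums of 113.2 to 179.1 and 241.2 to 313.5 CPM in the same order of groups. Without Ndrg3 LKO replicate 5, 5 were called higher, where 28.3% of all genes were. Of 8 hepatocyte genes, 5 were called lower, where 23.0% of genes were, and 1 higher (median -1.20), 6 being called lower without Ndrg3 LKO replicate 5, and with *Apoa1* (-2.34) and *Tat* (-1.78) falling furthest. Of 5 cholangiocyte genes, 0 were called higher and *Sox9* was called lower (-0.86), with 1 called higher and 1 lower once that liver was left out. The part of these cell types in the levels of *Cd9* and of the macrophage genes was not tested.

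Lists of other blood cells were near the detection limit. The 3 neutrophil genes in the wider fit passed the threshold (*S100a9* 2.50, *S100a8* 2.46, *Csf3r* 1.43). They entered it largely through the Ndrg3 LKO livers, so a count over them is not read as a result. The sum over the list was 0.536 to 1.39 CPM in wild-type and 1.38 to 15.7 CPM in Ndrg3 LKO livers, highest in replicate 5. Without that liver the log2 fold changes were 1.28 for *S100a9*, which no longer passed (adjusted p = 0.0785, edgeR), 1.37 for *S100a8* and 1.46 for *Csf3r*. In the wider fit, 1 of 4 dendritic cell genes and 1 of 3 lymphocyte genes, *Nkg7* (1.13), were called higher. *Nkg7* stood at 0.448 ± 0.132 CPM in wild-type and 1.01 ± 0.54 CPM in Ndrg3 LKO livers. As the called genes entered that fit largely through the Ndrg3 LKO livers, these counts are not read against the 24.8% of all genes. All 5 proliferation genes were called higher, with a median log2 fold change of 3.33 and 2.97 without Ndrg3 LKO replicate 5. *Top2a* and *Ccnb1*, at most 0.551 and 0.367 CPM in wild-type livers, passed the first filter only through the Ndrg3 LKO livers. The count is therefore not read against the 25.6% of all genes called higher under that filter. *Mki67*, made by dividing cells, rose from 0.819 ± 0.419 to 8.38 ± 5.74 CPM. The sum over the 5 was 9.91 to 87.3 CPM in Ndrg3 LKO livers, with replicate 5 highest, and which cells divided cannot be read from whole liver.

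Last, genes with the most similar pattern over the 10 livers were sought by the root mean square difference of centred log2(CPM + 1). For *Clec4f* these included *Pld4*, a lysosomal exonuclease (0.16) and *C1qc*, a subunit of complement C1q (0.18), among 11142 genes searched. For *Trem2* they were *Clec7a*, the receptor for beta-glucan (0.18), *H2-M3*, a nonclassical MHC gene (0.20), and *Gimap1*, a GTPase gene of lymphocytes and other immune cells (0.21). Because *Trem2* is low, the added 1 flattens its pattern, and genes with smaller fold changes (1.27 to 1.45 on the log2 scale) came nearest to it.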

How the data were processed

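The authors extracted total RNA from frozen livers, prepared stranded mRNA libraries and sequenced 100 base paired ends. Per the labels, Trim Galore 0.6.4, STAR 2.7.3a, Cufflinks 2.2.1 and the build mm9 were used. The annotation and strand setting of the counting are not given in the sources used here. The deposited values, though their names speak of CPM, are whole-number counts per gene with differing totals (20872262 to 30450057), and were used as raw counts. Of 24052 symbols, 25 are written as dates and 6306 had 0 counts in every liver.

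Counts were tested with edgeR 4.0.16 (R 4.3.3) by TMM and the quasi-likelihood test of Ndrg3 LKO against wild-type livers, 5 each, for the 11208 genes that reached 1 CPM in 5 or more livers, with Benjamini-Hochberg adjustment at 0.05. Members that failed this filter were read from the same test over 12338 genes kept by filterByExpr. The fits were checked on simulated counts. Alternatives were other scalings, DESeq2 1.42.0, limma 3.58.1, other filters, the replicate number as a block and each liver left out. The members and gene lists were chosen with earlier results of these data known. Named are all members, at most 4 called genes of each list with the largest log2 fold change and at least 1 CPM in the higher group, and the 3 genes of most similar pattern to *Clec4f* and *Trem2*. Some results under this rule are not reported here. *Mmp12*, *Nr1h3*, *Acp5* and *Apoe* were named after their values were seen. No 2 livers of a group were copies of 1 library (chi-square per degree of freedom 25.7 to 450 over 20 pairs). Positions come from GENCODE for NCBIM37. Promoters of RefSeq (GRCm38.p6) matched all 10 members and were found again in NCBIM37 at 1 exact place each, and bases inside an annotated gene were left off the runs shown. Intervals and limits of 3 counts speak for counting error alone, as PCR copies could not be told from separate molecules.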

Additional observations from a re-analysis of the deposited data

How the results depend on the processing

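All 10 members kept a higher level in Ndrg3 LKO livers in every alternative run. Of their log2 fold changes under alternatives, 198 stayed on the same side of the threshold and 12 did not. Some of the 198 could not have changed side. Those taken relative to the median of all genes tested keep the adjusted p of the main fit. For *Trem2*, *Gpnmb* and *Itgax*, the filterByExpr fit is the main one itself. *Timd4* no longer passed with quantile normalization (0.67), limma with a pseudocount of 1 (0.78) or 0.1 (0.94), or the replicate number as a block (0.98), and ranged from 0.83 to 1.31 with 1 liver left out (largest adjusted p = 0.115, edgeR). *Itgax* was lost with quantile normalization (0.26). With the replicate number as a block, the resident genes called higher fell from 5 to 3, where 19.8% of all genes were called higher, as *Clec4f* (1.10, adjusted p = 0.0626, edgeR) and *Timd4* (adjusted p = 0.140) no longer passed, and *Itgax* (1.11, adjusted p = 0.0529) was lost too. Same-numbered livers did not deviate together (correlations from -0.36 to 0.04), so the numbers were not taken as pairs. Library-size scaling moved the median of all genes to 0.56, and the log2 fold changes of *Clec4f* and *Gpnmb* to 1.65 and 5.11. Quantile normalization with a pseudocount of 1 brought *Trem2* to 0.89 and *Gpnmb* to 1.29. With each liver left out in turn, *Clec4f* ranged from 0.88 to 1.39, *Marco* from 3.96 to 4.51, *Trem2* from 2.94 to 3.66 and *Gpnmb* from 4.19 to 4.83. The causes of these shifts were not tested. Depth limits *Trem2*, *Gpnmb* and *Itgax*, whose wild-type counts lie between 0 and 10 per liver, where 3 counts equal 0.138 to 0.179 CPM.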
